A study of Drosophila melanogaster with 12 samples.

Results

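The effect of inducing RNA interference against pointed (pnt) that the gut and the fat body of the fly share was examined over 12 RNA sequencing libraries. The genes are those counted in both organs, 10005 of the 11409 genes counted in either. Each library was made from organs pooled from 12 adult Drosophila melanogaster females that carried UAS-PntRNAi, a hairpin transgene against pnt, with the S106 driver. The 6 induced libraries (3 of gut, 3 of fat body) are labelled +RU486 and the 6 control libraries (3 of gut, 3 of fat body) −RU486. The induced flies were fed 200 µM RU486 for 6 days, and the labels give this same treatment text for the controls too. Fat body here means the abdominal wall with its fat body after the reproductive organs were taken out, and gut means the gut without Malpighian tubules. Every fly carried both transgenes, and no libraries of flies fed RU486 without the hairpin are analysed here, so the effect of the inducer and that of the hairpin cannot be told apart.

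Pointed, an activator of the ETS family of transcription factors, acts downstream of the EGF receptor, Ras and MAP kinase. It competes for the same sites with the ETS repressor anterior open (aop), and aop and the Forkhead factor foxo are best known in the adult fly for extending life when active in gut and fat body. In the GeneSwitch system the driver protein is made all the time in the cells where S106 is active but binds DNA only when the flies eat the steroid RU486. The gut digests food and meets microbes, whereas the fat body stores fat and glycogen, secretes yolk and immune peptides and so combines tasks of liver and adipose tissue.

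Each gene got 1 common log2 fold change, induced over control, from a model with organ and induction as terms, so that the difference in level between the organs did not enter it. Levels are given as CPM, the count of a gene relative to the total of its library after TMM scaling (a factor per library from the bulk of its genes). An unadjusted p comes from the quasi-likelihood F-test of edgeR, and a gene was called when its p, adjusted over all genes by the Benjamini-Hochberg method, was under 10% FDR. The libraries held between 4910405 and 10234235 counts in these genes. Nothing in the labels says that libraries of a group came from separate cultures of flies, so p-values measure the spread between these libraries.

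The labels of the organs matched most of their marker genes. The enterocyte genes mag (a secreted lipase) and Npc1b (a sterol transporter) had 1980 to 3030 CPM and 519 to 1360 CPM in gut libraries, against 2.71 to 7.87 CPM and 0.338 to 2.01 CPM in fat body libraries. The lipoprotein gene apolpp had 6900 to 11900 CPM in fat body libraries and 67.5 to 127 CPM in gut libraries. Among the 12 fat body markers NLaz went the other way, with 36.9 to 59.6 CPM in fat body and 697 to 1690 CPM in gut libraries. Lsp2, another of them, had at most 3.99 CPM in any library. Libraries also stood apart within groups: the summed level of 12 fat body markers was 27100 to 51900 CPM in the induced fat body libraries, against 30200, 37500 and 107000 CPM in the control ones, the highest being control fat body replicate 3. Marker genes of other tissues were read too. The spermatheca gene Send1 had 240 to 502 CPM in fat body libraries and at most 6.38 CPM in gut libraries. The tubule gene Uro had 36.7 to 130 CPM in fat body and 4.64 to 134 CPM in gut libraries. The oenocyte gene Cyp4g1 had 17400 to 50900 CPM in fat body libraries. The part of these tissues in other values was not tested. In libraries of whole organs, fewer cells of a type and less RNA per cell cannot be told apart.

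The target of the hairpin was measured first. pnt (chromosome 3R, 23290231 to 23346167, Ensembl release 115 coordinates) had 25.3, 24.9 and 28.2 CPM in induced guts, against 33.0, 34.9 and 27.5 CPM in control guts. In the fat body it had 7.11, 8.95 and 9.73 CPM in induced libraries, against 9.59, 10.2 and 11.7 CPM in control libraries. In each organ the lowest control value was below the highest induced value, so the groups overlapped by 1 library. The common log2 fold change was −0.29 ± 0.14 (SE), a level of 82% of control with a 95% interval from 66.6 to 101%, and each organ on its own also gave −0.29. This did not pass the test across all genes (adjusted p = 0.76, edgeR). An exact permutation test of the induction labels within each organ, two-sided over 400 arrangements of which the smallest possible p is 0.005, gave p = 0.02. The same exact test on CPM without TMM scaling gave p = 0.12. Both tests shuffle the labels of each organ independently. They hold only if gut and fat body libraries came from different flies, which the labels do not say.

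**Figure D1:**
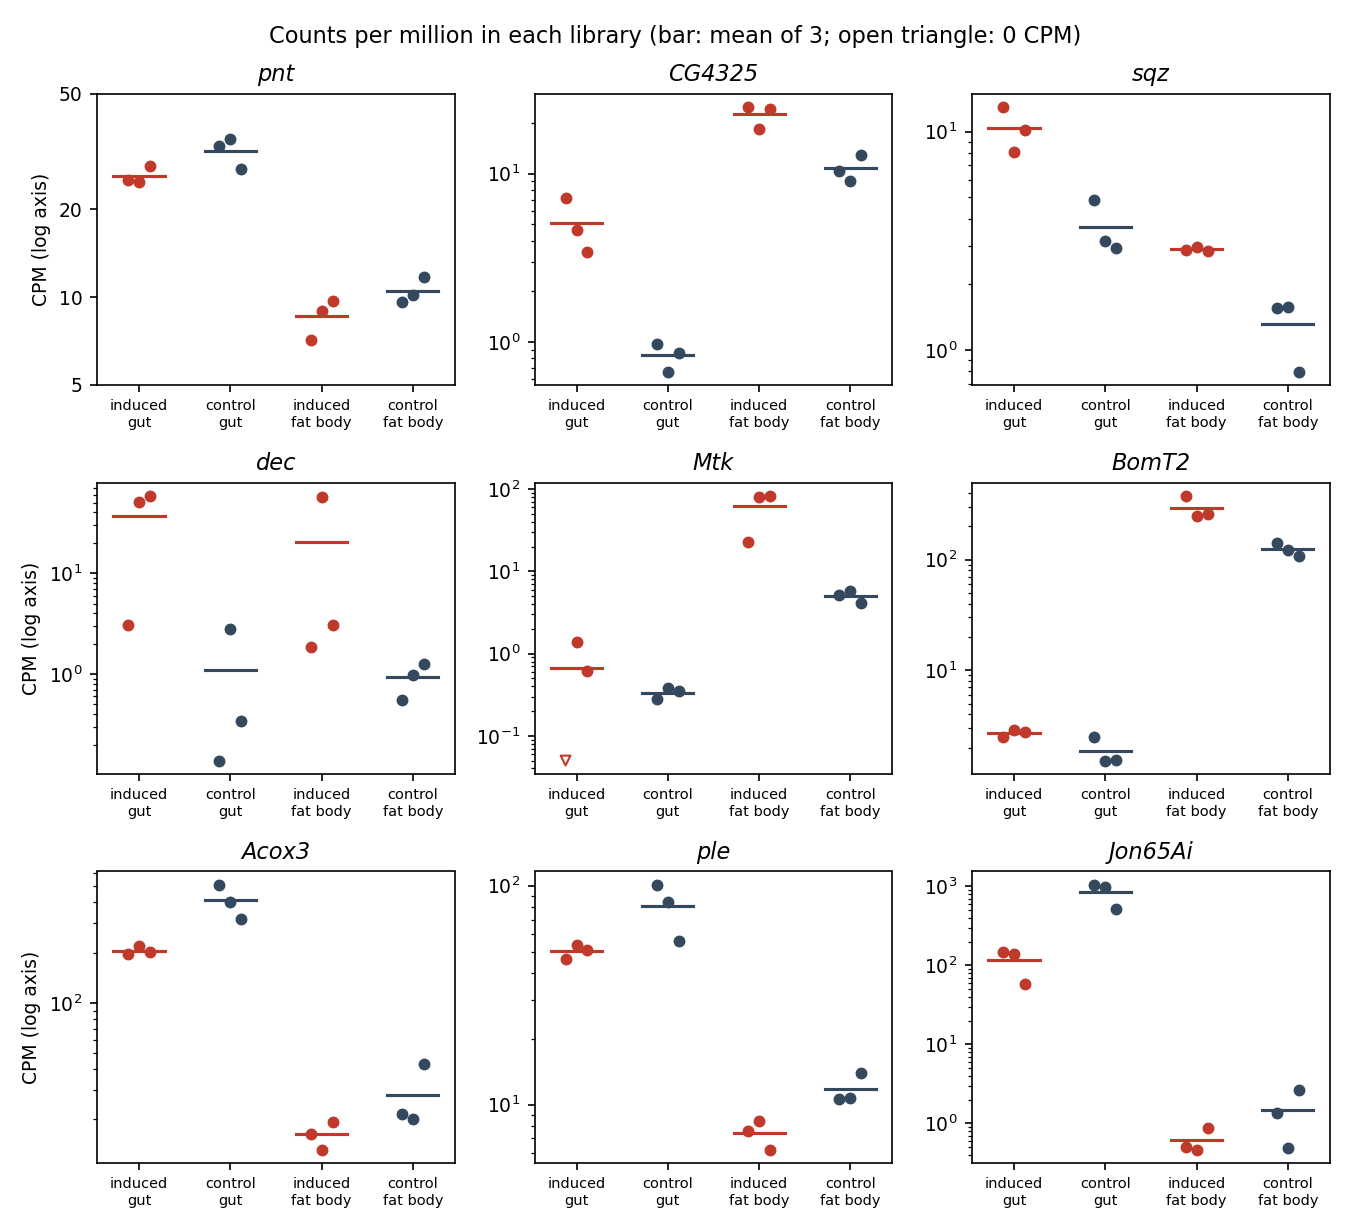
CPM (log axis) of pnt and 8 other genes in each of the 12 libraries, with induced libraries in red, control libraries in dark blue and a bar for the mean of 3. For pnt the groups overlap in both organs, whereas CG4325, sqz, dec, Acox3 and ple have all 3 induced libraries on one side of all 3 control libraries in both organs. The open triangle marks the induced gut library with 0 CPM of Mtk.

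No gene passed the test for a common effect. Of 10005 genes edgeR called 0 (0%), and the smallest adjusted p was 0.239. At an unadjusted p under 0.05 there were 646 genes (6.46%), of which 235 (2.35%) were higher and 411 (4.11%) lower in induced libraries. limma on the authors' variance-stabilised values also called 0, with a smallest adjusted p of 0.114, whereas DESeq2 with the same model called 23 genes of the 9576 to which it gave an adjusted p (0.24%), 14 higher and 9 lower. The 20 genes with the smallest p by edgeR held 18 of these 23. Relative to the bulk of genes, to which TMM scales, 7130 genes (71.3%) had a 95% interval of the common log2 fold change within 1 unit of 0, and of the 6948 genes with a mean of at least 10 CPM 5758 did (82.9%).

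The common effect was measured with a median standard error of 0.24 on the log2 scale, against 0.35 for the gut alone and 0.34 for the fat body alone in the same 12-library fit with an interaction. Across genes the fold changes of the 2 organs had Spearman's rho of 0.12 and Pearson's r of 0.21, as a description over 10005 genes that are not independent of each other. The sign was the same in both organs for 5508 genes (55.1%). Unadjusted p was under 0.05 within each organ and in the same direction for 26 genes (0.26%), 14 higher and 12 lower, and in opposite directions for 4.

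**Figure D2:**
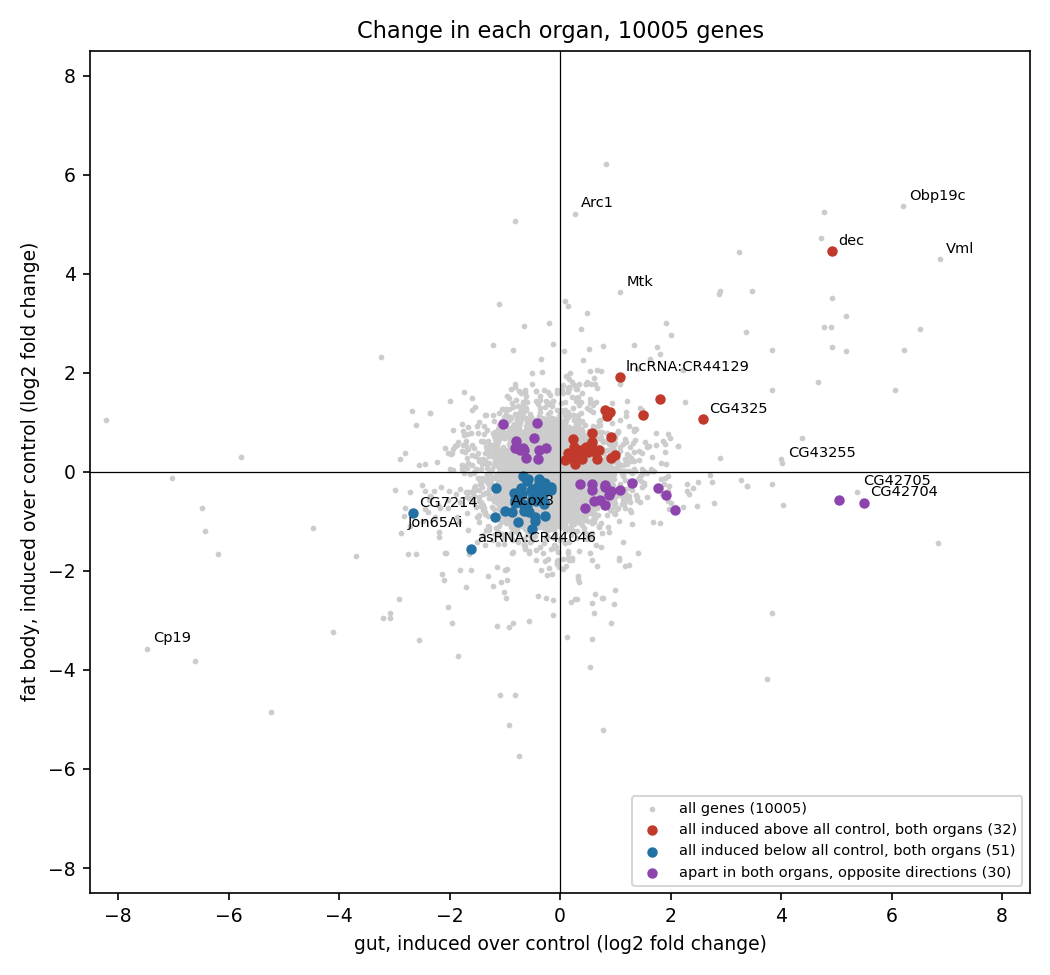
Log2 fold change, induced over control, of 10005 genes with the gut on the horizontal and the fat body on the vertical axis. The 32 genes with every induced library above every control library in both organs are red, the 51 with every one below are blue, and the 30 that stood apart in both organs but in opposite directions are purple. The grey cloud is centred near 0 on both axes, and the largest changes above 0 in both, upper right, are eggshell genes and Obp19c.

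The libraries of the 2 groups did not overlap, in the same direction, in both organs for 83 genes (0.83%), 32 higher (0.32%) and 51 lower (0.51%). In opposite directions there were 30 (0.3%), 18 of them higher in the gut and 12 lower there. In the gut alone 990 genes (9.9%) did not overlap, and in the fat body alone 816 (8.16%). On CPM without TMM scaling the counts were 43 higher and 15 lower, so the balance of directions depended on the scaling. None of the 83 passed the edgeR test.

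Among the genes higher in both organs, CG4325 stood first by p. It had 7.2, 4.65 and 3.41 CPM in induced guts, against 0.97, 0.668 and 0.865 CPM in control guts. In the fat body it had 25.0, 18.5 and 24.1 CPM in induced libraries, against 10.4, 9.01 and 12.9 CPM in control libraries. Its common log2 fold change was 1.66 ± 0.30 (SE; adjusted p = 0.239, edgeR; adjusted p = 0.00177, DESeq2). The change was 2.59 in the gut against 1.06 in the fat body, and the difference between organs did not pass (adjusted p = 0.999, edgeR). CG4325 lies on the X chromosome (2042730 to 2043818) and shares bases with CG4313 on the other strand. Whether the counting used strand is not given in the sources used here, so reads of such pairs cannot be told apart.

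sqz (squeeze), a zinc finger transcription factor known from neuron identity, had 13, 8.03 and 10.2 CPM in induced guts, against 4.85, 3.15 and 2.94 CPM in control guts. It had 2.88, 2.98 and 2.84 CPM in induced fat bodies, against 1.56, 1.58 and 0.798 CPM in control fat bodies. Its log2 fold change was 1.5 in the gut, 1.14 in the fat body and 1.34 ± 0.25 in common (adjusted p = 0.239, edgeR; adjusted p = 0.00246, DESeq2). CG4325 and sqz were among the 5 genes that DESeq2 called in all 12 fits that left out 1 library each. The others were lncRNA:CR44310, Mtk and Jon65Ai.

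For these others the common value came mainly from 1 organ. lncRNA:CR44310, a long non-coding RNA on chromosome 2L (3616296 to 3617619) and first of all genes by p, had 119, 111 and 124 CPM in induced guts, against 42.7, 33.8 and 41.5 CPM in control guts. In the fat body it had at most 0.219 CPM in induced libraries and at most 0.122 CPM in control libraries, so its common log2 fold change of 1.51 ± 0.26 is a value of the gut. Jon65Ai, a serine protease of the digestive Jonah family, had 149, 140 and 57.4 CPM in induced guts, against 1050, 987 and 522 CPM in control guts. All its induced gut libraries were below all control gut libraries, whereas in the fat body, at 0.466 to 0.875 CPM in induced and 0.487 to 2.62 CPM in control libraries, the groups overlapped. Its common log2 fold change was −2.39 ± 0.45.

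Acox3, an acyl-CoA oxidase of the kind that starts fatty acid breakdown in peroxisomes, led the genes lower in both organs. It had 196, 220 and 201 CPM in induced guts, against 511, 403 and 320 CPM in control guts. In the fat body it had 16.4, 13.2 and 19.2 CPM in induced libraries, against 21.5, 20 and 42.9 CPM in control libraries. Neither organ's groups overlapped, and the common log2 fold change was −0.90 ± 0.21 (adjusted p = 0.639, edgeR; 0.0347, DESeq2). Left out 1 at a time, the libraries moved it between −1.0 and −0.72.

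ple, which encodes tyrosine hydroxylase, the first enzyme of dopamine synthesis and a source of precursors for hardening cuticle, had 46.1, 53.4 and 50.9 CPM in induced guts, against 101, 84.3 and 55.7 CPM in control guts. It had 7.61, 8.4 and 6.23 CPM in induced fat bodies, against 10.6, 10.7 and 13.9 CPM in control fat bodies. The change was nearly the same in the 2 organs, −0.68 and −0.66, with a common value of −0.67 ± 0.17 (adjusted p = 0.639, edgeR; adjusted p = 0.0994, DESeq2). cora (coracle), a scaffold of the septate junctions that seal epithelia, had 58.5, 51.1 and 52.2 CPM in induced guts, against 71.5, 75.8 and 72.0 CPM in control guts. In the fat body it had 32.5, 36.8 and 33.5 CPM in induced libraries, against 54.2, 52.3 and 38.2 CPM in control libraries. Its common log2 fold change of −0.47 ± 0.13 was the smallest among the 23 genes called by DESeq2 (adjusted p = 0.0994), and its 95% interval ran from −0.74 to −0.20.

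Further genes lower in both organs by this rule were the axon guidance cue NetA at −0.66, the transglutaminase Tg, which crosslinks proteins in clots and cuticle, at −0.89, and Neurochondrin at −1.03 on the log2 scale. mlt stood at −0.84, Msr-110 at −0.69, CG7214 at −1.88 and asRNA:CR44046 at −1.58. The last 2 were at most 2.49 CPM in any library, so that their fold changes rest on few counts. Named after their values were seen, the homeotic gene Antp stood at −0.68, the adhesion molecule Fas2 at −0.47, the glycerol kinase gene Gk2 at −0.72 and the elongation factor gene eEF1alpha1 at −0.69. The GSK3 kinase gene sgg stood at −0.31, with 82.3, 103 and 91.2 CPM in induced guts, against 122, 118 and 122 CPM in control guts.

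Higher in both organs were 2 genes that lie on top of each other, fit (female independent of transformer, a secreted product of the fat body known as a satiety signal) and asRNA:CR45046. fit had 166, 107 and 137 CPM in induced fat bodies, against 92.6, 27.6 and 52.9 CPM in control fat bodies, and 9.06, 9.04 and 13 CPM in induced guts, against 4.85, 4.77 and 8.13 CPM in control guts. Its common log2 fold change was 1.05 ± 0.27, and that of asRNA:CR45046 1.01 ± 0.26. CG31465, which overlaps both on the other strand, stood at 1.58 ± 0.40, so these are not 3 independent measurements. MED6, a subunit of the Mediator complex that links transcription factors to RNA polymerase, stood at 0.45 ± 0.12, with 44.0, 41.1 and 38.9 CPM in induced guts, against 29.7, 27.3 and 34.6 CPM in control guts. IleRS-m, a tRNA ligase of mitochondria, stood at 0.58 ± 0.16, CG7130 at 0.81 ± 0.21, lncRNA:CR44129 at 1.46 ± 0.36 and CR42875, annotated as a pseudogene, at 1.05 ± 0.29.

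Bomanins and the Daisho peptides are short secreted peptides that the Toll pathway switches on against fungi and bacteria. All 12 measured members had a common log2 fold change above 0, which 46.3% of all genes had, and were above 0 in each organ as well, with a median of 0.66 (0.55 in the gut, 0.56 in the fat body), against −0.03 over all genes. At an unadjusted p under 0.05 there were 8 of 12 members, against 6.46% of all genes, and edgeR called 0 of them. The list was put together with earlier results of these data known, and its members lie in part next to each other and are expressed together, so that they are not 12 separate measurements. Leaving out 1 library at a time gave 6 to 10 members at p under 0.05 and a median between 0.54 and 0.75, and leaving out replicate 3 of both control groups gave 5 members.

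BomT2 had the smallest p among them. It had 377, 248 and 259 CPM in induced fat bodies, against 141, 122 and 107 CPM in control fat bodies. In the gut, where it is scarce, it had 2.47, 2.89 and 2.79 CPM in induced libraries, against 2.49, 1.53 and 1.56 CPM in control libraries. The groups were apart in the fat body and overlapped in the gut by 1 control library, and the common log2 fold change was 0.99 ± 0.20 (adjusted p = 0.392, edgeR; 0.0134, DESeq2). BomS3, the most abundant member, had 1530, 1090 and 2020 CPM in induced fat bodies, against 1300, 1130 and 1070 CPM in control fat bodies, which overlap. In the gut BomS3 had 35.4, 23.6 and 44.4 CPM in induced libraries, against 16.6, 16.3 and 20.2 CPM in control libraries, which do not. The remaining members ranged from 0.15 (BomT3) to 1.07 (Dso2).

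The antimicrobial peptides, which pierce or block bacteria and fungi, were less uniform. Of 8 members 6 were above 0 (46.3% of all genes were), with a median of 0.69. At p under 0.05 there were 4 (6.46% of all genes were). Without induced fat body replicate 2 the median was 0.36, with 2 members at p under 0.05. Mtk (metchnikowin), an antifungal peptide, had 23.0, 81.1 and 83.2 CPM in induced fat bodies, against 5.13, 5.84 and 4.11 CPM in control fat bodies. In the gut it had 0, 1.38 and 0.619 CPM in induced libraries, against 0.277, 0.382 and 0.346 CPM in control libraries. The groups were far apart in the fat body and overlapped in the gut, so the common log2 fold change of 3.11 ± 0.56 (adjusted p = 0.239, edgeR; 0.00138, DESeq2) is mostly that of the fat body, 3.63, against 1.09 in the gut. The difference between the organs did not pass (adjusted p = 0.999, edgeR).

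DptA (diptericin A), a peptide against Gram-negative bacteria, had 4.91, 93.0 and 21.6 CPM in induced fat bodies, against 6.02, 4.5 and 7.19 CPM in control fat bodies. It had 1.44, 7.16 and 6.04 CPM in induced guts, against 0.693, 0.764 and 2.42 CPM in control guts. Replicate 1 of both induced groups lay within the control range, and the common value was 2.46 ± 0.63. AttB (0.82) and DptB (0.88) were the other members at p under 0.05. AttB stood at −0.18 in the gut against 1.55 in the fat body, and DptB at 1.04 against 0.8. Drs (drosomycin), the most abundant of these genes in the fat body, had a common value below 0, −1.38 ± 0.94 (−2.35 in the gut, −0.49 in the fat body). It had 977, 2260 and 1060 CPM in induced fat bodies, against 2570, 2620 and 847 CPM in control fat bodies. In the gut it had 22, 2.01 and 4.8 CPM in induced libraries, against 140, 2.86 and 1.56 CPM in control libraries.

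Turandot genes encode stress proteins secreted by the fat body, and of 8 sought 2 were measured. Both were at p under 0.05 (6.46% of all genes were). TotM had 36.2, 63.5 and 22.4 CPM in induced fat bodies, against 21.2, 15.3 and 13.3 CPM in control fat bodies, and a common log2 fold change of 1.34 ± 0.38. TotA stood at 1.32 ± 0.37. In the gut both genes were scarce and their groups overlapped. TotM had 1.65, 1.63 and 0.464 CPM in induced guts, against 0.139, 0.859 and 0.173 CPM in control guts. TotA had at most 3.39 CPM in any gut library. The receptors and kinases that sit above these peptides did not share the direction. Of 25 genes of Toll and Imd signalling 8 were above 0 (46.3% of all genes were) and 17 below, with a median of −0.18. At p under 0.05 there was 1 (6.46% of all genes were), Tab2, an adaptor of the Tak1 kinase, at −0.46. Of 11 peptidoglycan recognition proteins 8 were above 0 (46.3% of all genes were), with a median of 0.33. PGRP-SD (0.56) and PGRP-LF (0.43) were at p under 0.05 (6.46% of all genes were). Markers of blood cells, which also make such peptides, had a median of 0.19 over 10 genes and a summed level of 397 to 529 CPM in induced fat bodies, against 366 to 528 CPM in control fat bodies, and of 243 to 258 CPM in induced guts, against 164 to 380 CPM in control guts. Their part in the immune values was not tested.

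**Figure D3:**
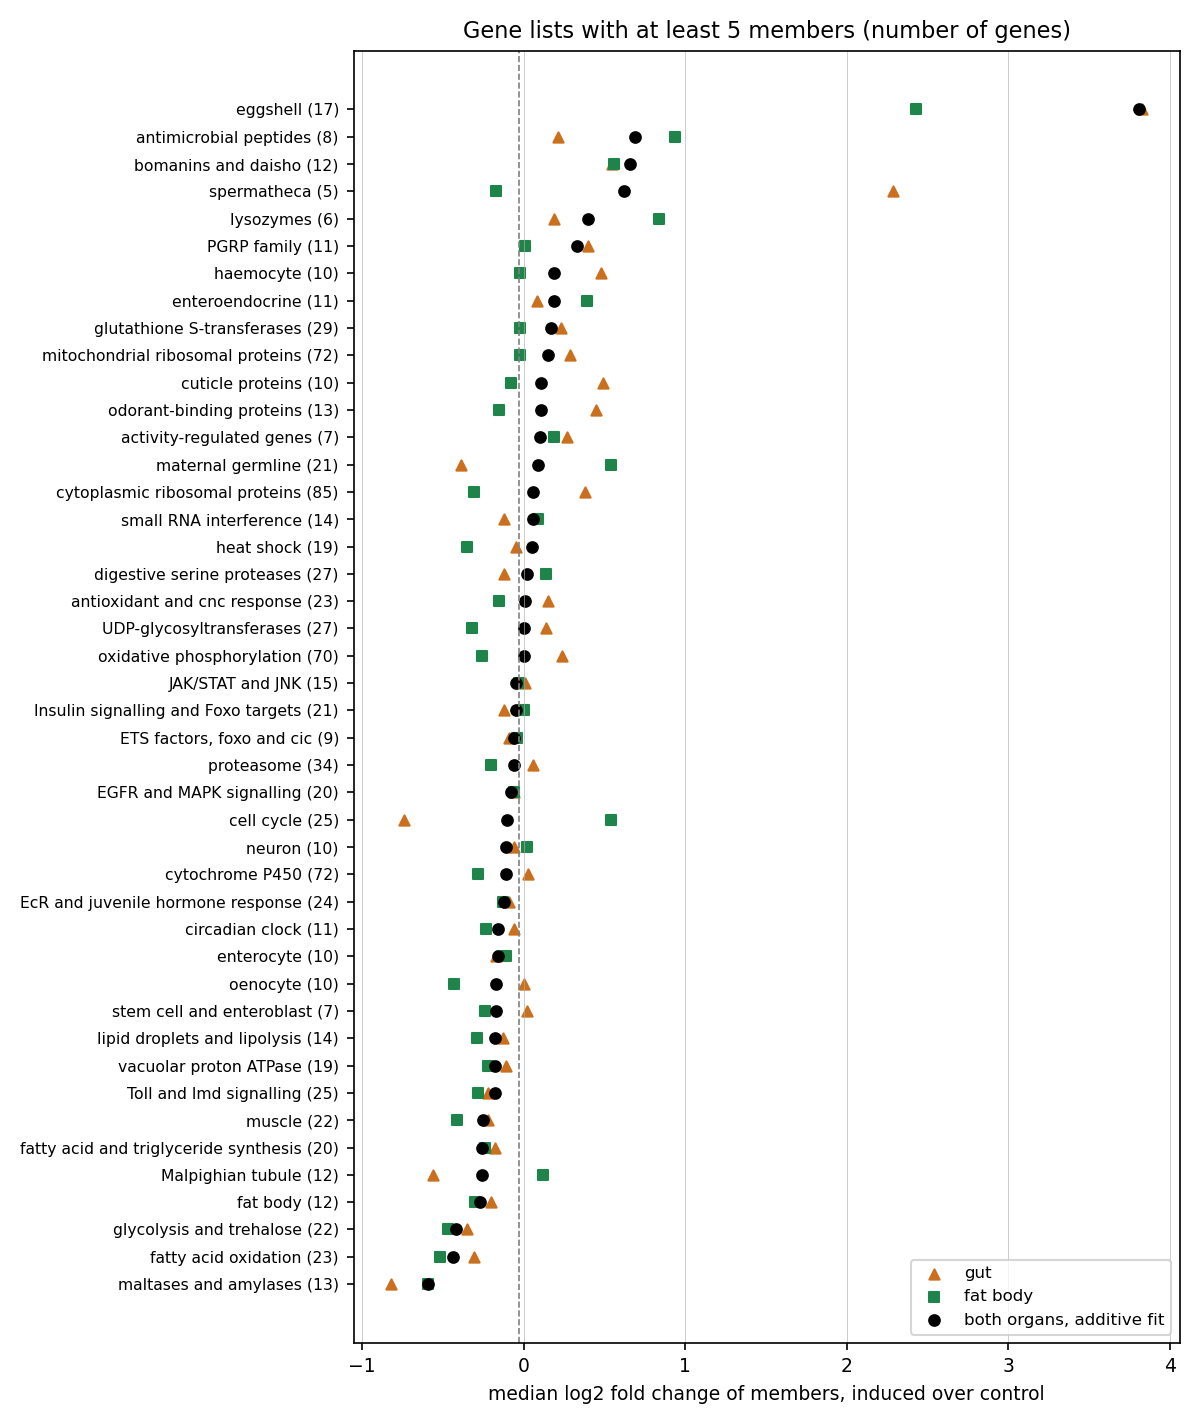
Median log2 fold change, induced over control, of each gene list with at least 5 measured members, from the fit over both organs (black), in the gut (orange triangles) and in the fat body (green squares). The dashed line is the median of all genes, −0.03. Immune peptides lie right of it and maltases, fatty acid oxidation and glycolysis left of it in both organs, whereas cell cycle genes lie on opposite sides. The fat body value of the maltases includes genes with few counts there.

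Most genes of 2 metabolic lists had values below 0. Of 22 genes of glycolysis and trehalose metabolism, which break down sugar and make the sugar of fly blood, 21 were below 0, as were 53.7% of all genes, and 19 were below 0 in both organs, with a median of −0.42 (−0.35 in the gut, −0.47 in the fat body). At p under 0.05 there were 3 of the 22 (6.46% of all genes were), Hex-C (−1.18), Ald1 (−0.44) and Tpi (−0.58). Of 23 genes of fatty acid oxidation and peroxisomes 20 were below 0 in both organs, with a median of −0.44. At p under 0.05 there were 6 of the 23 (6.46% of all genes were). Over all genes 55.1% had the same sign in both organs, whether above or below 0. CPT2, which with whd (CPT1 of other animals) brings fatty acids into mitochondria, stood at −0.69 ± 0.21, and whd at −0.48 ± 0.21.

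CPT2 had 39.1, 36.5 and 34.5 CPM in induced guts, against 63.9, 64.1 and 42.4 CPM in control guts. In the fat body it had 16.2, 16.4 and 24.5 CPM in induced libraries, against 24, 23.4 and 49.3 CPM in control libraries. The groups were apart in the gut and overlapped in the fat body, where control replicate 3 was highest. Hex-C had 59.7, 50.9 and 95.7 CPM in induced fat bodies, against 45.3, 89.2 and 345 CPM in control fat bodies, where replicate 3 was again the highest. Without control fat body replicate 3 the median of fatty acid oxidation was −0.14 with 1 gene at p under 0.05, and that of glycolysis −0.26 with 0. Without control gut replicate 3 they had 11 and 10 genes at p under 0.05, and without control fat body replicate 1 they had 12 and 12, so the counts rest on single control libraries in both directions. Without control gut replicate 1 the counts were 1 and 0, and without control gut replicate 2 the count for fatty acid oxidation was 1. It was also 1 without induced fat body replicate 1, which left 1 for glycolysis. Over the 12 omissions the counts ran from 1 to 12 for fatty acid oxidation and from 0 to 12 for glycolysis, and without 3 induced libraries, fat body replicate 2 and gut replicates 2 and 3, they were 0 and 1.

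Maltases and amylases, which cut starch and sugars in the gut, had 11 of 13 members below 0 (53.7% of all genes were). The median of the list was −0.59 (−0.82 in the gut). In both organs 7 were below 0. The fat body median was −0.59, but it includes genes with few counts there. Mal-A7 and Mal-A8 had at most 0.0933 and 0.223 CPM in any fat body library. Amy-p, the main amylase, had 340, 436 and 408 CPM in induced guts, against 1120, 717 and 315 CPM in control guts. The groups overlapped, since control gut replicate 3 was lowest of all, and in the fat body the gene was at most 3.19 CPM in any library. Without control gut replicate 1 the median of the list was −0.21. Enzymes of fatty acid and triglyceride synthesis had 17 of 20 members below 0 (53.7% of all genes were) and a median of −0.26. AcCoAS (−0.73), Men (−0.68) and Fatp1 (−0.64) were lower at p under 0.05, as were 4.11% of all genes. Control fat body replicate 3 was the highest fat body library for each, at 1080, 1230 and 185 CPM in that order. The other control fat bodies had at most 512, 539 and 72.3 CPM. For Men, control gut replicate 3 (86.7 CPM) was below every induced gut (88.3 CPM or more).

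The member of that list at p under 0.05 above 0 was Dgat2, named for the last step of triglyceride synthesis. It had 50.6, 51.9 and 73.4 CPM in induced guts, against 25.9, 21.8 and 29.2 CPM in control guts. It had 5.41, 6.06 and 6.12 CPM in induced fat bodies, against 2.9, 3.04 and 5.7 CPM in control fat bodies, which overlap. The common log2 fold change was 0.92 ± 0.21 (adjusted p = 0.639, edgeR; 0.0519, DESeq2). Muscle genes, markers of the muscle around the gut and in the abdominal wall, were below 0 for 21 of 22 (53.7% of all genes were). Of these 22 genes 3 were at p under 0.05 (6.46% of all genes were), and the median was −0.25. Their summed level was 3640 to 3900 CPM in induced guts, against 3460 to 4000 CPM in control guts, and 3770 to 5940 CPM in induced fat bodies, against 5410 to 7760 CPM in control fat bodies. The part of muscle content in the metabolic values was not tested.

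Eggshell genes had the largest fold changes. They are made by the follicle cells of the ovary, which was taken out in dissection, in turns as the egg matures: vitelline membrane first, then early and late chorion. None was called by edgeR. Of 17 members 11 were above 0, 10 at p under 0.05, and 6 below, 3 at p under 0.05, with a median of 3.81. Over all genes 46.3% were above 0, and at p under 0.05 2.35% were higher and 4.11% lower. dec (defective chorion) had 3.09, 50.2 and 58.5 CPM in induced guts, against 0.139, 2.77 and 0.346 CPM in control guts. It had 1.86, 56.6 and 3.06 CPM in induced fat bodies, against 0.558, 0.974 and 1.25 CPM in control fat bodies. The groups did not overlap in either organ, and the common log2 fold change was 4.71 ± 0.98 (adjusted p = 0.392, edgeR; 0.00209, DESeq2).

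Which eggshell genes were high differed by library. Induced gut replicate 3 had 137 CPM of Vml and 264 CPM of Vm26Aa, both vitelline membrane genes, against at most 0.416 and 16.9 CPM in control guts. Induced gut replicate 2 and induced fat body replicate 2 were high in the chorion genes Cp7Fb (152 and 235 CPM) and Cp7Fc (281 and 449 CPM), which had at most 14.3 and 7.54 CPM in any control library. Control gut replicate 2 held the later chorion genes Cp19 at 1560 CPM and Cp16 at 415 CPM, and control fat body replicate 2 was the highest fat body library for both, at 69.6 and 22.4 CPM.

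**Figure D4:**
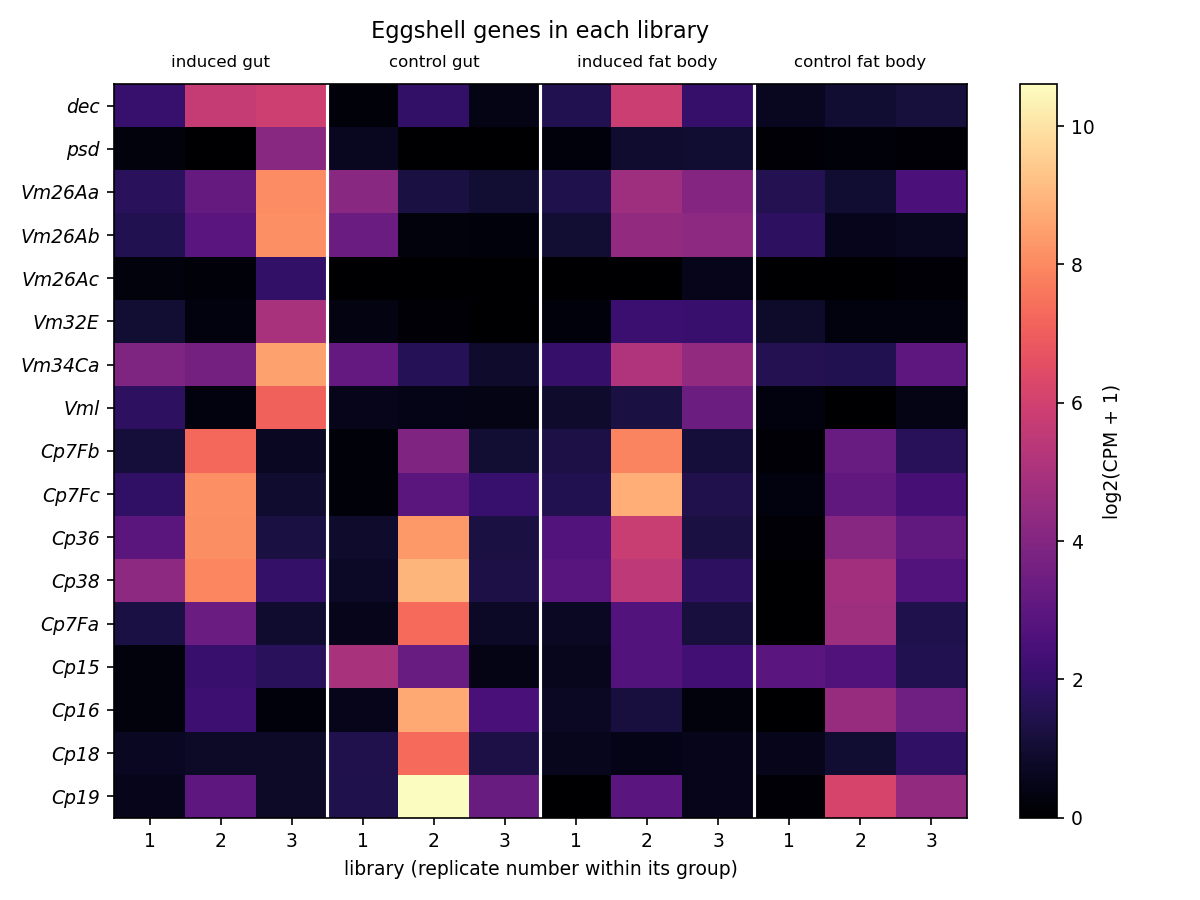
Level of 17 eggshell genes, as log2(CPM + 1), in the 12 libraries, with induced before control libraries of each organ and replicates numbered within groups. Vitelline membrane genes are brightest in induced gut replicate 3, Cp7Fb and Cp7Fc in replicate 2 of both induced groups, and Cp16 and Cp19 in replicate 2 of both control groups.

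Over the 17 genes each gut library was most like the fat body library that has the same replicate number, with Spearman's rho of 0.90, 0.91 and 0.84 in the induced and 0.54, 0.91 and 0.90 in the control libraries, as a description. These numbers follow the order of the sample records and are not given as pairs by the labels, which do not say whether a gut and a fat body library came from the same flies. Over the 6948 genes with at least 10 CPM, the deviations of libraries from their group means had Pearson's r of 0.12, 0.30 and 0.25 for equal numbers in the induced libraries, but −0.42, 0.02 and −0.49 in the control libraries. In these, control gut replicate 1 was most like control fat body replicate 3 (0.46) and control gut replicate 3 most like control fat body replicate 1 (0.50). The fit takes the 12 libraries as separate, and its standard errors and p-values hold only if they are. Without induced fat body replicate 2 and induced gut replicates 2 and 3 the median of the list was −0.83, with 3 members higher and 2 lower at p under 0.05. The same omission, chosen after seeing the data, left 299 genes at p under 0.05 and 7 called by DESeq2, of which CG4325 and CG7300 were among the 23.

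Without induced gut replicate 3 alone the median of the eggshell genes was 1.45, with 6 members higher, and without control gut replicate 2 alone 1 member was lower. Obp19c, an odorant-binding protein gene, had 53.2 CPM in induced fat body replicate 2 and 47.8 CPM in induced gut replicate 2 and at most 0.684 CPM in the other ten libraries, so its common value of 5.71 ± 1.54 rests on the same 2 libraries. Of 21 genes of the ovary's germ line 14 were above 0 (46.3% of all genes were). The median of the 21 was 0.09 (−0.39 in the gut, 0.54 in the fat body, and 0.42 in common without control gut replicate 2). None of them was at p under 0.05, and none had the same sign in both organs. The part of ovary RNA in other values was not tested.

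The ETS factors, pnt included, with foxo and the repressor cic gave a median of −0.06 over 9 genes, none at p under 0.05. aop stood at −0.06 ± 0.17, with 65.7, 55.6 and 50.6 CPM in induced guts, against 54.6, 58.2 and 69.7 CPM in control guts, and 53.6, 51.8 and 44.2 CPM in induced fat bodies, against 67.2, 53.5 and 33.1 CPM in control fat bodies. foxo stood at −0.07 ± 0.17, cic at −0.04 ± 0.16, Eip74EF at 0.09 ± 0.25, Ets21C at −0.15 ± 0.36, Ets96B at 0.03 ± 0.18, Ets97D at 0.18 ± 0.21 and Ets98B at −0.34 ± 0.22. The interval of aop, −0.43 to 0.30, holds changes of that size in either direction.

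Of 20 genes of EGF receptor and MAP kinase signalling 15 were below 0 (53.7% of all genes were), with a median of −0.08. rho (rhomboid), the protease that frees the EGF-like ligands, was the only one at p under 0.05 (6.46% of all genes were), at −0.77 ± 0.32. It had 1.23, 1.51 and 1.7 CPM in induced guts, against 2.36, 2.67 and 2.08 CPM in control guts, and 2.37, 4.01 and 1.53 CPM in induced fat bodies, against 5.24, 6.94 and 2.28 CPM in control fat bodies. The groups were apart in the gut and overlapped in the fat body.

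Of 21 genes of insulin signalling and its targets 1 was at p under 0.05 (6.46% of all genes were). This was Ilp6, an insulin-like peptide that the fat body secretes, with 49.9, 66.3 and 109 CPM in induced fat bodies, against 21.1, 22.9 and 30.8 CPM in control fat bodies. In the gut it had 0.823, 1.63 and 2.32 CPM in induced libraries, against 0.97, 1.34 and 1.38 CPM in control libraries. Its log2 fold change was 1.59 in the fat body, 0.4 in the gut and 1.19 ± 0.30 in common (adjusted p = 0.639, edgeR). It overlaps Raf on the other strand. Thor, the translational repressor 4E-BP, stood at −0.28 ± 0.22, tobi, an alpha-glucosidase gene that responds to insulin, at 0.77 ± 0.51, Adh (alcohol dehydrogenase) at −0.46 ± 0.41, the perilipin gene Lsd-2 at 0.05 ± 0.22, aay (a phosphoserine phosphatase) at 0.02 ± 0.27 and the amidase gene PGRP-SC2 at 0.48 ± 0.37.

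Some other lists had medians of opposite sign in the 2 organs, which the common value does not show. For the difference between organs edgeR called 0 genes, so these medians are a description only. The 25 cell cycle genes had a median of −0.74 in the gut against 0.54 in the fat body, and none had the same sign in both. Their summed levels overlapped in each organ. They were 266 to 508 CPM in induced guts, against 287 to 947 CPM in control guts. In the fat body they were 713 to 1330 CPM in induced libraries, against 275 to 1180 CPM in control libraries. The 85 cytoplasmic ribosomal proteins had 0.38 in the gut against −0.31 in the fat body, and the 70 subunits of oxidative phosphorylation 0.24 and −0.26. Mitochondrial ribosomal proteins were above 0 for 63 of 72 (46.3% of all genes were). Their median was 0.15, with 0.29 in the gut against −0.02 in the fat body. Only mRpL49 (0.38) was at p under 0.05, as were 6.46% of all genes. Glutathione S-transferases, which join glutathione to toxic compounds, had 4 of 29 at p under 0.05, all higher (2.35% of all genes were), and 2 without induced gut replicate 3, 6 without control gut replicate 3 and 7 without control fat body replicate 1. The member with the smallest p was GstD2, at 4.37 in the gut against 0.68 in the fat body. GstD2 had 14.4, 21.2 and 128 CPM in induced guts, against 2.36, 2.29 and 3.29 CPM in control guts. Hsp22, a small chaperone of mitochondria, stood at 1.31 ± 0.38 and had identical counts to the overlapping CG4456.

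The test of the difference between organs called 0 genes by edgeR (0%, smallest adjusted p 0.116) and 13 by DESeq2 (0.13%), with 342 genes (3.42%) at an unadjusted p under 0.05 by edgeR. Within the 12-library fit 5 genes (0.05%) passed in the gut alone, CG4325, CG15199, CG42704, CG42705 and CG43255, and 1 gene (0.01%) in the fat body alone, Arc1. Arc1, a Gag-like gene whose product forms capsids that carry RNA between cells, had 128, 463 and 1030 CPM in induced fat bodies, against 11.4, 14.7 and 17.7 CPM in control fat bodies. In the gut it had 169, 175 and 197 CPM in induced libraries, against 201, 148 and 101 CPM in control libraries. Its neighbour Arc2 stood at 0.70 in the gut against 1.03 in the fat body, with a common value of 0.86 ± 0.23.

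How much the whole result leans on single libraries was measured by leaving each out. The additive fit called 0 genes in all 12 such fits by edgeR, while the number of genes at an unadjusted p under 0.05 ran from 398 without control gut replicate 1 to 1195 without control gut replicate 3, and was 1103 without control fat body replicate 1. By DESeq2 the number called ran from 10 without induced fat body replicate 2 to 135 without control gut replicate 3, with 12, 13, 13 and 50 without control fat body replicate 3, control gut replicates 1 and 2 and control fat body replicate 1, in that order.

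**Figure D5:**
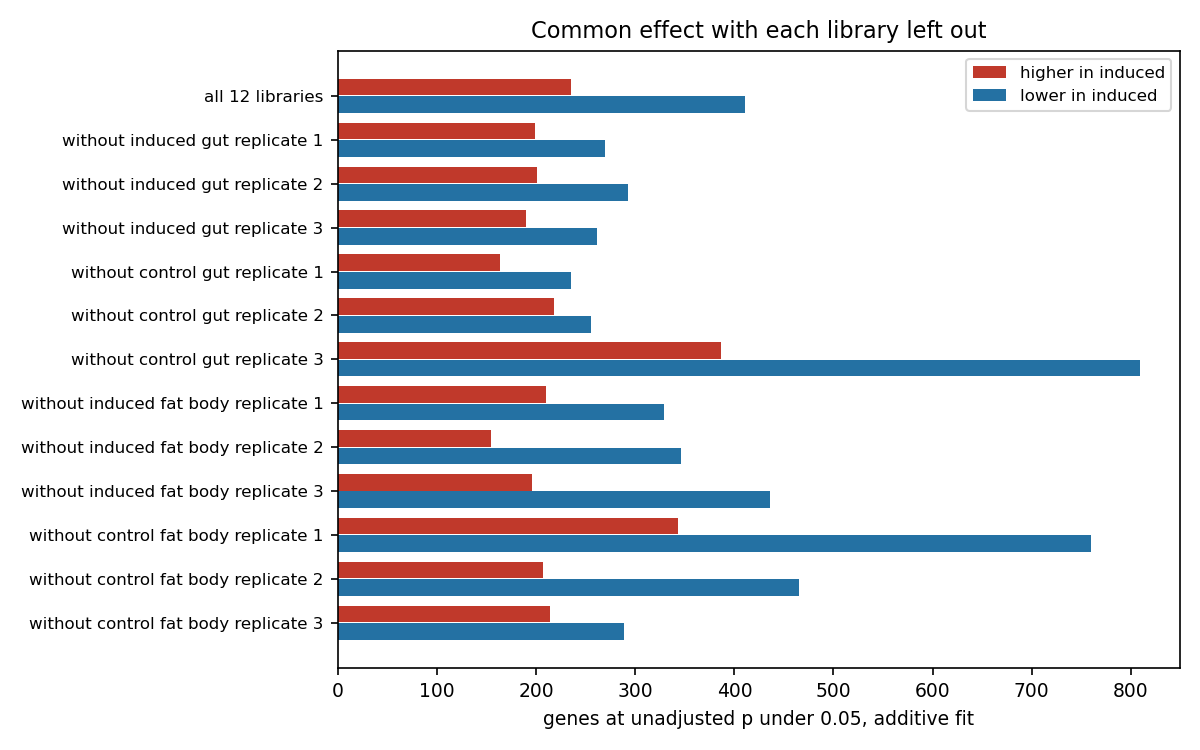
Genes at an unadjusted p under 0.05 in the additive fit, higher (red) or lower (blue) in induced libraries, with all 12 libraries (235 and 411) and with each library left out. The bars are longest without control gut replicate 3, at 386 higher and 809 lower, and the lower genes are fewest, at 235, without control gut replicate 1.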

How the data were processed

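Poly(A) RNA of 12 libraries was sequenced with molecular identifiers and 16 PCR cycles. The authors removed duplicates with Je 1.2, aligned reads to fly genome release 6 with HiSat2 2.1 and deposited raw counts per gene from featureCounts 1.6, 1 table per organ. Genes with no reads, or absent from the companion experiment of the study, had been removed. They also deposited variance-stabilised values from DESeq2, a score on a log2-like scale that is defined within an organ. The +RU486 or −RU486 label of a sample gave its group.

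Counts were joined by gene identifier and tested with edgeR 4.0.16 in R 4.3.3 (quasi-likelihood F-test, organ and induction as terms, TMM over 12 libraries, at least 1 count, 10% FDR). The independent hypothesis weighting that the study used was not run. Alternatives were DESeq2 1.42.0, limma 3.58.1 on the deposited score, RLE scaling, TMM within each organ, a filter on low counts, robust dispersion, 5% FDR and leaving out libraries. DESeq2 gave no adjusted p to 429 genes. Standard errors are the log2 fold change over the root of F. The code was tested on simulated data. Positions are from Ensembl 115, and 9926 of 10005 genes had a symbol.

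Members and the 47 gene lists were chosen with earlier results of these data known. Lists are described by counts and medians only. Dsor1, a kinase gene caught by a name pattern, was taken out of the Daisho list after its value was seen. The text names the genes the study discusses, the 20 with the smallest p, up to 10 in each direction that do not overlap in both organs, the member of a list with the smallest p and the 5 with the smallest p for the difference. Genes named beyond this rule were chosen after their values were seen. Sequences are not shown.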

Additional observations from a re-analysis of the deposited data

Results flagged for a closer look

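For 5 named genes DESeq2 called the difference between the organs (log2 fold change of the fat body minus that of the gut), whereas edgeR called none of them. The values, with the adjusted p by edgeR, were 4.94 for Arc1 (0.145), −2.70 for CG15199 (0.361), −3.85 for CG43255 (0.414), −5.78 for CG42705 (0.116) and −6.12 for CG42704 (0.116). CG42704 and its X-linked neighbour CG42705 were both higher in fat body than in gut libraries. CG42704 had 41.2, 93.7 and 174 CPM in induced guts, against 0.277, 2.2 and 4.5 CPM in control guts, and 1630, 1420 and 1620 CPM in induced fat bodies, against 2660, 2720 and 1790 CPM in control fat bodies.

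Among 33 genes examined for a library far from the other five of its condition, after centring on the organ, 2 of 66 groups stood out, and about 1 in 20 does so by chance. CG15533 had 132 CPM in control gut replicate 1, and Dgat2 had 73.4 CPM in induced gut replicate 3.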

How the results depend on the processing

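The count of genes called for a common effect was 0 under every scaling, filter, dispersion, threshold and omission run with edgeR and under limma, with smallest adjusted p from 0.114 (limma) to 0.995, and 23 under DESeq2. Genes at an unadjusted p under 0.05 (646) numbered 398 to 1195 without 1 library and 299 without induced fat body replicate 2 and induced gut replicates 2 and 3, a fit in which the lone induced gut library is assumed to vary like the other groups. The difference between organs gave 13 calls under DESeq2, instead of 0, and 0 to 3 without 1 library. The log2 fold change of pnt stayed between −0.36 and −0.24 without 1 library, and its exact permutation p was 0.12 on CPM without TMM scaling. Without control gut replicate 3 and control fat body replicate 3 together DESeq2 called 64 genes, 22 of them among the 23. Within-organ calls ran from 0 to 11 in the gut and from 0 to 2 in the fat body without 1 library, and without both of those controls the gut fit, in which 2 control guts remain, called 975 genes. No paired analysis was run, because the labels do not say which gut and fat body libraries belong together. If some came from the same flies, the p-values of the common effect do not hold. The biological coefficient of variation was 34.7%, with 3 libraries a group. The causes of these shifts were not tested.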
